A study of Homo sapiens with 5 samples.

Results

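Nuclear-encoded genes of the respiratory chain were compared between HCC827/GR cells, which resist the EGFR inhibitor gefitinib, and the HCC827 cells they were derived from. The genes were chosen by name from the deposited table of FPKM values (a read density scaled to transcript length and library size), as all symbols that begin with NDUF, UQCR, SDH, ATP5 or COX and a digit, without antisense genes and pseudogenes. This gave 92 genes of 31673 symbols in 37181 entries, of which 41 belong to complex I, 5 to complex II, 8 to complex III, 21 to complex IV and 17 to complex V, assembly factors included. Where a symbol had several entries, the one with the highest mean FPKM was used.

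HCC827 is a human lung adenocarcinoma cell line that carries an activating EGFR mutation, and HCC827/GR is a single line obtained from it under stepwise gefitinib dosing for more than 6 months. The values come from 5 RNA-sequencing libraries, HCC827/GR replicates 1, 2 and 3 and HCC827 replicates 2 and 3. The labels do not state that the libraries came from separate cultures, and the paper speaks of independent repetitions only for its in vitro data in general, so the p-values measure the spread between these libraries, which may be technical. In such bulk samples, fewer cells of a type and less RNA per cell cannot be told apart.

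The respiratory chain sits in the inner mitochondrial membrane. Complexes I and II pass electrons from NADH and succinate to ubiquinone, complex III passes them on to cytochrome c, complex IV passes them to oxygen, and complex V, the ATP synthase, uses the proton gradient that complexes I, III and IV build. Most subunits are encoded in the nucleus, and many of their promoters bind NRF1, the ETS factor GABP, YY1, SP1 or CREB, while the coactivator PGC-1alpha raises their transcription in tissues with a high demand for ATP.

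Promoter sequences were taken from RefSeq (GRCh38.p14), which gave 300 bases around the start for 73 of the 92 genes, 250 before the start and 50 after it. Each was searched on both strands for GCATGCGC (NRF1), CCGGAAG (ETS), AAGATGGC (YY1), GGGCGG (SP1) and TGACGTCA (CREB). The NRF1 letters stood in 20.5% of the respiratory chain promoters and in 4.26% of 15842 protein-coding promoters of the same length (3.27% of all 27305). The ETS letters stood in 26.0% against 14.2% (10.7% of all), the YY1 letters in 15.1% against 3.91% (3.03% of all) and the CREB letters in 6.85% against 2.59% (1.98% of all). The SP1 letters were about as frequent in both, at 57.5% and 58.5% (44.6% of all). Among the tested genes with a promoter, the NRF1 letters stood in 7 of the 28 whose HCC827/GR libraries were all above HCC827 and in 8 of the 43 others. A match is a stretch of letters and not evidence of binding.

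The 250 bases before the start of 4 genes are shown, for UQCRC1 and NDUFA1 because they passed the test in opposite directions, and for SDHB and ATP5C1 because they hold NRF1 letters and were listed higher in every HCC827/GR library. Capitals mark the NRF1, ETS, YY1 or CREB letters on either strand, and sequences run 5′ to 3′ on the gene's strand.
UQCRC1 (chr3:48609647-48609896, minus strand): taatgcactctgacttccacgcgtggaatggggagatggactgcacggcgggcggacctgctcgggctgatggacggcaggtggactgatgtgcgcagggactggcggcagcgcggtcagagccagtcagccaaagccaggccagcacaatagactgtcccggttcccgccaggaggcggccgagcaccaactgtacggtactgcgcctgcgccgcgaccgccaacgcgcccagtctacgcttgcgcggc
NDUFA1 (chrX:119871582-119871831, plus strand): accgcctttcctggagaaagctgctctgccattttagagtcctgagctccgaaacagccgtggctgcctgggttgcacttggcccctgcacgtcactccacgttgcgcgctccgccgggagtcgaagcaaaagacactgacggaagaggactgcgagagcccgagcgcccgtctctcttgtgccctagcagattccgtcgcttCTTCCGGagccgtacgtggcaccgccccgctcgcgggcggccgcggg
SDHB (chr1:17054033-17054282, minus strand): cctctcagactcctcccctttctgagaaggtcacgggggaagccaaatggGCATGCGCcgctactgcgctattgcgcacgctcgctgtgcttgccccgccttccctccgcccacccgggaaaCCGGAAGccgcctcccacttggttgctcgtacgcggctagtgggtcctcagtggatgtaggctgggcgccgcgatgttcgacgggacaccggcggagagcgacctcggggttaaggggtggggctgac
ATP5C1 (chr10:7787927-7788176, plus strand): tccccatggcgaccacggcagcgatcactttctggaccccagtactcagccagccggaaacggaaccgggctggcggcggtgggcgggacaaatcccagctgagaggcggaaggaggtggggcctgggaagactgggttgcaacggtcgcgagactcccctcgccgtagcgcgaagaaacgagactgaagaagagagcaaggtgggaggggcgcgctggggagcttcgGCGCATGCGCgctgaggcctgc
NDUFA1 had 1 run of ETS letters, 47 bases before the start, read on the opposite strand. SDHB had the NRF1 letters 200 and the ETS letters 128 bases before the start. In ATP5C1 the capitals are NRF1 letters on both strands that overlap each other, from 22 bases before the start. UQCRC1 held none of these letters in the stretch printed, and its single run of YY1 letters lay in the bases after the start. SP1 letters, which are not marked, stood in all of these stretches.

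**Figure D1:**
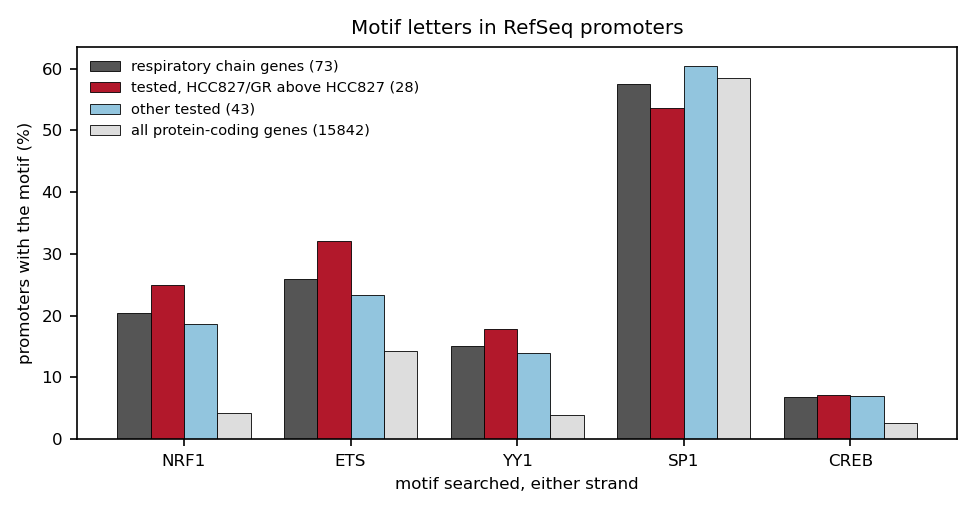
Share of RefSeq promoters (300 bases, vertical axis in percent, from 0) that hold the letters of each motif, for the 73 respiratory chain genes with a promoter, for the 28 of them whose HCC827/GR libraries were all above HCC827, for the 43 other tested ones and for 15842 protein-coding genes. The NRF1 bar stands at 20.5% for the respiratory chain genes against 4.26% for protein-coding genes, and at 25% and 18.6% for those with all HCC827/GR libraries above and for the others.

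Values of 86 respiratory chain genes had a mean of at least 0.5 FPKM and were tested on log2(FPKM + 1) with limma, in a fit over 16189 entries. A fold change on this scale understates the change of low genes. FPKM carries no read numbers, so the depth is unknown and no counting error can be given. Of the 86 genes, 2 were higher in HCC827/GR cells at a Benjamini-Hochberg adjusted p under 0.05 (2.33%), UQCRC1 and ATP5G3, against 5.26% of the 16189 entries tested. A further 3 genes were lower (3.49%), COX19, COX7B and NDUFA1, against 5.71% of all entries. None of the 86 reached a fitted 2-fold change with a p under 0.05, which 6.94% of all entries did. For COX19 this rested on the pseudocount of 1, since its ratio of means was 0.412 and its log2 fold change was -1.23 with a pseudocount of 0.1 (limma adjusted p 0.0148).

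None of the 5 calls held in every fit that left out a library. Without HCC827/GR replicate 1 or HCC827/GR replicate 2, limma called 0 of the 86 genes at an adjusted p under 0.05. In those fits 9 and 18 genes were higher and 4 and 4 lower at an unadjusted p under 0.05. Over all 16189 entries, calls also fell, from 851 higher and 924 lower to 202 and 287 and to 368 and 409. Without HCC827/GR replicate 3, COX19 alone passed, beside 485 higher and 477 lower of all entries. Fits without an HCC827 library rest on a single library of that line. Ballgown's model also called 0 of the 86, as did a fit with the replicate number as a block. In the block fit HCC827/GR replicate 1 has no HCC827 library of its number. Its fold changes are therefore those without that library, and little is left to estimate the spread. Of all entries, Ballgown's model called 4 higher and 9 lower, and the block fit 0 and 0. In the fits that left out a library, the log2 fold change ran from 0.52 to 0.72 for ATP5G3, 0.43 to 0.56 for UQCRC1, -0.70 to -0.58 for NDUFA1, -1.06 to -0.78 for COX7B and -1.11 to -0.84 for COX19, so the directions held.

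Of the 86 tested genes, the 5 that passed included, most leaned upward by a small amount. The log2 fold change was above 0 for 56 genes (65.1%) and below 0 for 30, against 50.2% above 0 of all entries and 54.1% of protein-coding entries, with a median of 0.15, while the median was 0.0014 over all entries tested and 0.034 over protein-coding entries. All 3 HCC827/GR libraries were above both HCC827 libraries for 34 genes (39.5%), against 22.8% of all entries and 26.8% of protein-coding entries. They were below both for 8 genes (9.30%), against 23.4% of all and 21.8% of protein-coding entries. At an unadjusted p under 0.05, limma counted 16 genes higher and 5 lower of 86, against 13.4% and 13.8% of all entries. Of 10977 protein-coding entries, 1729 were higher and 1422 lower. Of 4910 protein-coding entries between the quartiles of the set's mean FPKM, 843 were higher and 592 lower. The share of genes higher was thus near that of entries with similar FPKM. Of those entries, 56.5% had a positive fold change, and 27.9% were above and 19.9% below without overlap. The median was 0.16 for the 67 subunits, of which 28 were above without overlap and 5 below. For the 18 assembly factors it was 0.02, with 6 above and 3 below.

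The libraries of one line differed in this lean. Relative to each gene's mean over the 5 libraries, the median of the 86 genes stood at 0.09, -0.01 and 0.13 in HCC827/GR replicates 1, 2 and 3 and at -0.13 and -0.03 in HCC827 replicates 2 and 3, on the log2 scale. HCC827 replicate 2 was below HCC827 replicate 3 in 65 of the 86 genes (75.6%), against 48.5% of all entries tested. The median fold change of the 86 genes was 0.12 on the log2 scale without HCC827 replicate 2 and 0.21 without HCC827 replicate 3.

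**Figure D2:**
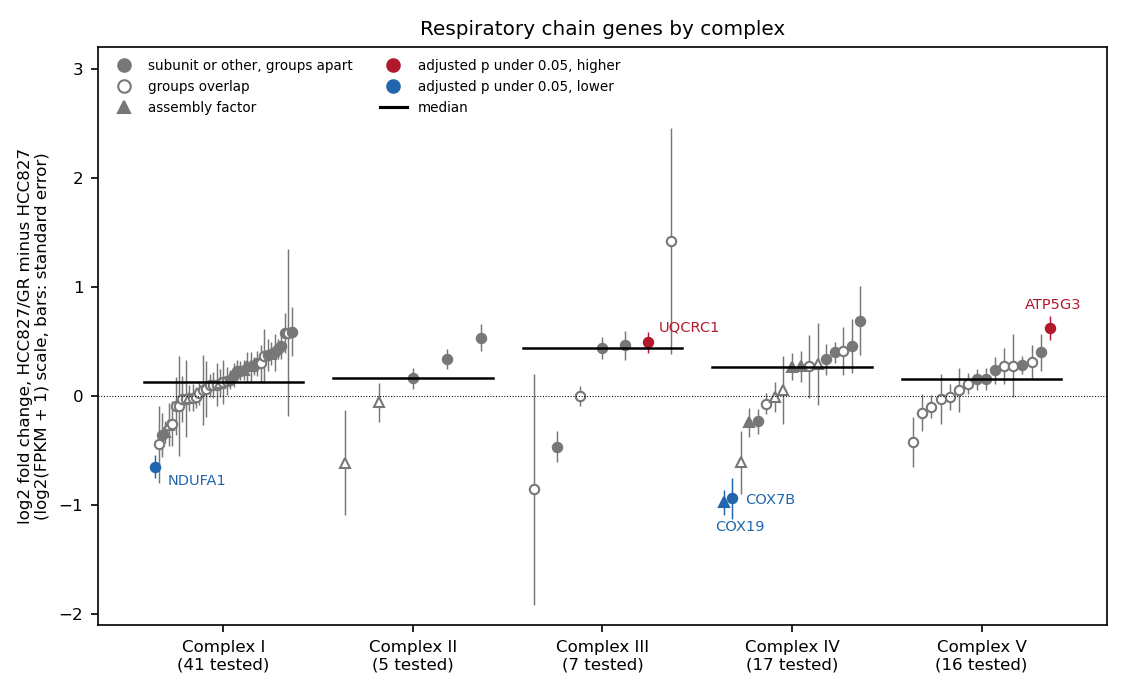
Limma log2 fold change of HCC827/GR minus HCC827 (vertical axis, log2(FPKM + 1) scale, bars are standard errors) for the 86 tested genes, in order of size within each complex, with the complex median as a black line. Filled symbols are genes whose libraries did not overlap between the lines, triangles are assembly factors, and the 5 coloured genes passed an adjusted p of 0.05, with medians of 0.13, 0.16, 0.44, 0.27 and 0.15 from complex I to complex V.

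In complex I, 28 of 41 genes had a positive fold change and 13 a negative one, with a median of 0.13 on the log2 scale (0.21 without HCC827 replicate 3), and 1 passed the test. The catalytic core holds the flavin and the iron-sulphur clusters. Of its 5 genes in the set, 4 were above without overlap, against 22.8% of all entries, and the median was 0.30. Other core subunits are held by entries of another name, so these 5 are not the whole core. NDUFS1, its largest iron-sulphur subunit, was listed at 13.1, 11.95 and 13.4 FPKM in HCC827/GR and at 8.28 and 9.88 in HCC827. Every HCC827/GR library was above both others, and the log2 fold change was 0.46 (SE 0.11), with a limma adjusted p of 0.0768. NDUFV1, which binds NADH, was listed at 17.1, 16.7 and 17.5 FPKM against 13.7 and 14.2, also without overlap (0.28, limma adjusted p 0.115). NDUFS7 was listed between 1.36 and 1.43 FPKM in all 5 libraries, with a log2 fold change of -0.01.

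The 28 accessory subunits of complex I, which surround the core, went in both directions. Without overlap, 8 were above and 2 below (28.6% and 7.14%), against 22.8% and 23.4% of all entries. Of protein-coding entries with similar FPKM, 27.9% were above, so the first share was near theirs. NDUFA1, an accessory subunit needed for assembly of the complex, was listed at 12.3, 11.1 and 13.3 FPKM in HCC827/GR and at 19.3 and 20.1 in HCC827. It was lower by a log2 fold change of -0.65 (SE 0.11, limma adjusted p 0.0303), with no overlap. NDUFB9 lay just outside the threshold, at 5.87, 6.09 and 6.35 FPKM against 4.02 and 4.51 (0.43, limma adjusted p 0.0549). NDUFS5 was listed at 14.7, 11.7 and 13.4 FPKM against 7.06 and 10.3, above without overlap, though the HCC827 libraries were far apart (0.58, limma adjusted p 0.134). NDUFA7, in an entry joined with CD320, had a fold change of 0.59 on the log2 scale with a limma adjusted p of 0.177.

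Some accessory subunits were too uneven within a line to compare. NDUFA6 was listed at 11.9, 3.05 and 11.8 FPKM in HCC827/GR and at 2.21 and 9.65 in HCC827, so that both lines held a low and a high library. NDUFA8, the complex I gene with the highest mean, was listed between 17.8 and 38.8 FPKM, and both extremes were HCC827 libraries (-0.02, SE 0.35). Among the 8 assembly factors, NDUFAF4 was listed at 4.30, 5.00 and 4.39 FPKM against 3.07 and 3.43 (0.39, limma adjusted p 0.0921), and NDUFAF6 at 1.66, 1.66 and 1.85 against 2.25 and 2.59 (-0.33, limma adjusted p 0.125). Of the 8 factors, 4 were above without overlap and 1 was below (22.8% and 23.4% of all entries), and 0 passed the test in either direction.

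Complex II, the succinate dehydrogenase, links the chain to the citric acid cycle. The 3 subunits with an entry of their own were above without overlap, as were 22.8% of all entries. SDHA, the flavoprotein, was listed at 22.3, 21.7 and 22.0 FPKM in HCC827/GR and at 13.3 and 16.7 in HCC827. The HCC827/GR libraries were nearly level and the HCC827 ones were lower and less even, with a log2 fold change of 0.54 (SE 0.12, limma adjusted p 0.0599), just outside the threshold. SDHB, the iron-sulphur subunit whose promoter is shown above, was listed at 24.2, 23.3 and 24.3 FPKM against 17.7 and 19.8 (0.34, SE 0.094, limma adjusted p 0.0960). SDHC, a membrane anchor, was listed at 9.77, 10.7 and 10.4 FPKM against 9.48 and 8.71 (0.16, limma adjusted p 0.343). SDHD, the other anchor, was counted in an entry with BCO2 and TEX12, where both lines overlapped, with a log2 fold change of 0.04.

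Pseudogenes nearly identical to SDHA were listed the other way. SDHAP3 was listed at 1.92, 2.96 and 1.75 FPKM in HCC827/GR and at 4.83 and 6.88 in HCC827, a log2 fold change of -1.10 (SE 0.23, limma adjusted p 0.0482). SDHAP1 (-0.23) and SDHAP2 (-0.42) were also below without overlap, with limma adjusted p-values of 0.189 and 0.298. Reads of SDHA and these copies can be assigned to one another, so the value of SDHA is uncertain to that extent, and the part of this in the result was not tested. The assembly factor SDHAF3 ranged from 0.183 to 2.48 FPKM within HCC827/GR, and SDHAF4 was listed between 0.385 and 0.717 FPKM with overlap.

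Complex III had the highest median, 0.44 on the log2 scale over 7 tested genes, of which 4 had a positive fold change. UQCRC1, a core subunit on the matrix side, was listed at 44.1, 43.0 and 45.8 FPKM in HCC827/GR and at 29.8 and 32.7 in HCC827. It lay above without overlap, with a ratio of means of 1.42 and a log2 fold change of 0.49 (SE 0.093, limma adjusted p 0.0400). UQCRC2, the other core subunit, was listed at 18.8, 16.6 and 18.3 FPKM against 11.2 and 14.3 (0.46, SE 0.13, limma adjusted p 0.104). UQCRH, the hinge subunit, was listed at 33.5, 30.4 and 33.2 FPKM against 22.3 and 24.9 (0.44, SE 0.10, limma adjusted p 0.0640). These 3 genes thus had fold changes of nearly the same size, and 1 of them passed the test.

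The other subunits of complex III differed from these. UQCRB was listed between 1.76 and 1.89 FPKM in all 5 libraries, with a log2 fold change of -0.0019. UQCR11, in an entry joined with MBD3, was listed at 6.00, 5.12 and 4.32 FPKM against 7.20 and 7.66, below without overlap (-0.46, limma adjusted p 0.123). UQCR10 and the Rieske iron-sulphur protein UQCRFS1 each rested on a single library. UQCR10 was listed at 0.467 FPKM in HCC827 replicate 3 and between 7.52 and 20.1 in the others, and UQCRFS1 at 1.72 FPKM in HCC827/GR replicate 2 and between 17.8 and 22.6 in the others. Their fold changes of 1.42 (SE 1.04) and -0.85 (SE 1.06) on the log2 scale, the extremes of the complex, changed sign without those libraries, to -0.18 and 0.18. The complex III median was 0.03 without HCC827 replicate 3.

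In complex IV, 10 of 17 tested genes had a positive fold change and the median was 0.27 on the log2 scale. Without HCC827 replicate 2, that median was -0.07. COX6B1, a subunit at the dimer interface, was above without overlap, at 41.0, 41.6 and 40.7 FPKM in HCC827/GR and at 29.01 and 32.9 in HCC827 (0.40, SE 0.097, limma adjusted p 0.0701). COX5B, the gene with the highest mean, was listed at 57.8, 52.3 and 62.8 FPKM against 40.7 and 50.6, without overlap by a small margin (0.34, limma adjusted p 0.222). COX4I1 was listed at 28.7 FPKM in HCC827/GR replicate 1, at 17.3 and 17.7 in the other two and at 14.6 and 14.9 in HCC827, with a log2 fold change of 0.46 (SE 0.25) that was 0.23 without HCC827/GR replicate 1. COX7A2 had the largest positive fold change, 0.69 (SE 0.32), and was listed at 7.80 FPKM in HCC827 replicate 3 against 17.1 in HCC827 replicate 2 and 18.3 to 20.3 in HCC827/GR. Its log2 fold change was 0.17 without HCC827 replicate 3.

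The lower genes of the complex were COX7B and COX19. COX7B, a small structural subunit, was listed at 13.2, 11.4 and 8.65 FPKM in HCC827/GR and at 21.1 and 22.6 in HCC827. The mean in HCC827/GR was 0.507 of that in HCC827, without overlap, and the log2 fold change was -0.94 (SE 0.19, limma adjusted p 0.0446), the largest adjusted p inside the threshold. COX19, a copper-related assembly factor, was listed at 2.14, 2.13 and 2.17 FPKM against 4.63 and 5.81 (-0.97, SE 0.12, limma adjusted p 0.0138). Its entry also holds transcripts of the neighbouring gene ADAP1, so the share of each gene in this value was not tested. COX11 was listed lower on average but overlapped (-0.61, limma adjusted p 0.257), and COX7C was below without overlap (-0.23, limma adjusted p 0.285).

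In complex V, none of 16 tested genes was below without overlap (23.4% of all entries) and 37.5% were above (22.8% of all entries). Of the 16, 11 had a positive fold change, with a median of 0.15 on the log2 scale. That median was 0.06 without HCC827 replicate 2 and 0.23 without HCC827 replicate 3. ATP5B, the catalytic beta subunit and the most abundant gene of the set, was listed at 219.9, 221.6 and 161.3 FPKM in HCC827/GR and at 124.8 and 215.4 in HCC827, with overlap and a log2 fold change of 0.28 (SE 0.29). ATP5C1, the gamma subunit with the NRF1 letters shown above, was listed at 25.7, 24.2 and 25.5 FPKM against 20.6 and 20.2 (0.29, SE 0.084, limma adjusted p 0.111). ATP5A1, the alpha subunit, overlapped (-0.10). ATP5J2, in an entry joined with PTCD1, was above without overlap (0.40, limma adjusted p 0.227).

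The 3 genes for the c subunit, which forms the rotating ring of the ATP synthase, encode the same mature protein and differed in their fold changes. ATP5G3 was listed at 12.5, 11.0 and 11.7 FPKM in HCC827/GR and at 6.71 and 7.87 in HCC827, which is higher by a log2 fold change of 0.62 (SE 0.11, limma adjusted p 0.0355) without overlap. ATP5G2 was listed at 9.22, 12.1 and 8.24 FPKM against 11.1 and 16.1, with overlap (-0.42, SE 0.23, limma adjusted p 0.313). ATP5G1 was listed at 8.29, 8.39 and 7.16 FPKM against 6.01 and 9.52 (0.06). As a share of the summed FPKM of the 3 genes, ATP5G3 took 41.7%, 35.0% and 43.1% in HCC827/GR and 28.2% and 23.5% in HCC827. The share of ATP5G2 was 30.7%, 38.4% and 30.4% against 46.6% and 48.0%, and both shares separated the lines, while that of ATP5G1 was between 25.2% and 28.4% in all libraries. These shares are a description without a test.

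**Figure D3:**
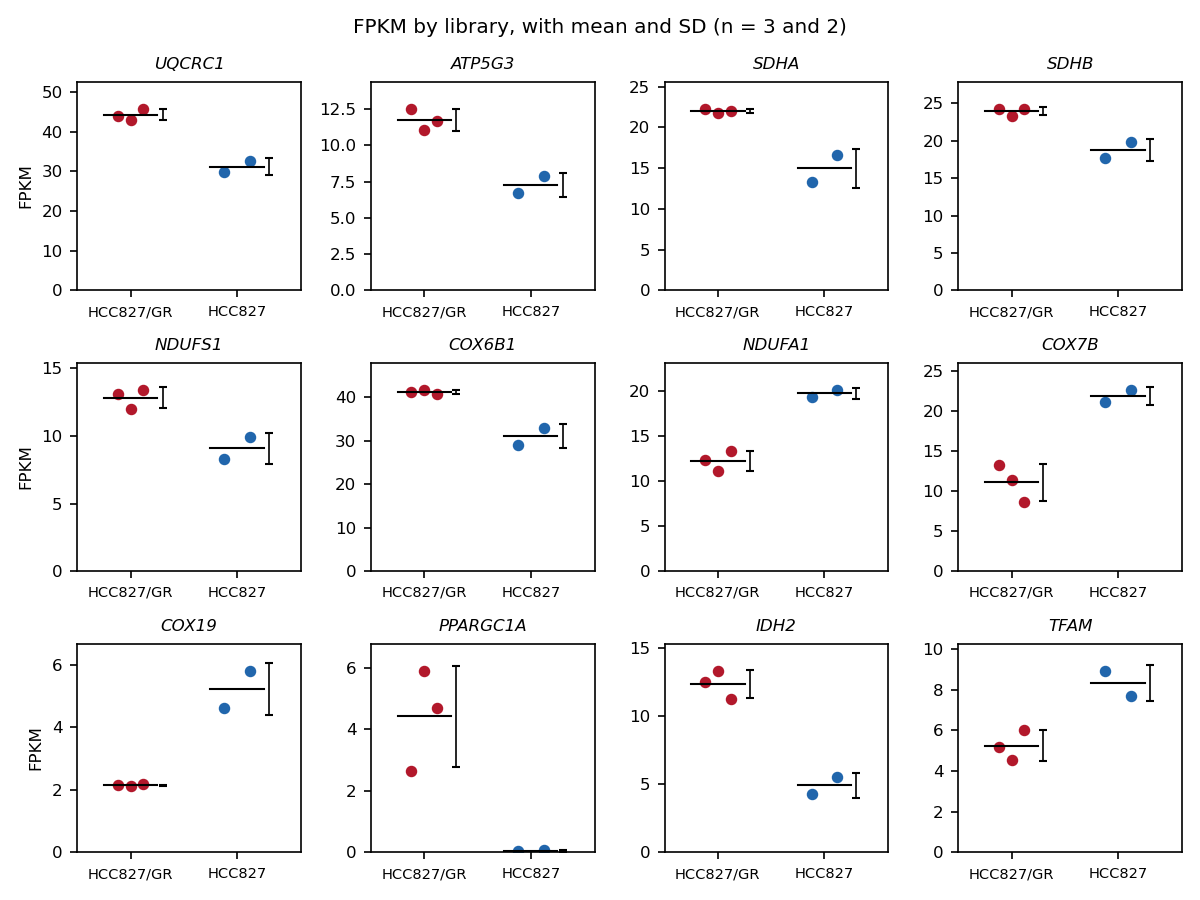
FPKM (vertical axes, each from 0) of 9 respiratory chain genes, the coactivator gene PPARGC1A, the citric acid cycle gene IDH2 and the mitochondrial transcription factor TFAM, with 1 point per library, the mean as a line and the SD as a bar (3 HCC827/GR and 2 HCC827 libraries). The points of both lines are apart in every panel, with UQCRC1 at 43.0 to 45.8 against 29.8 and 32.7 FPKM and COX7B at 8.65 to 13.2 against 21.1 and 22.6 FPKM.

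Tissue isoforms were low in both lines. NDUFA4L2, an isoform of the complex IV subunit NDUFA4 that hypoxia induces, was listed at 0.133, 0.0854 and 0.109 FPKM in HCC827/GR and at 0.413 and 0.549 in HCC827, and COX6B2, a testis isoform, at 0.0480, 0.00967 and 0.0162 against 0.263 and 0.299. Both were below without overlap but under the level tested. In a fit without that minimum, COX6B2 was lower at a limma adjusted p of 0.0309. COX7A1, the muscle isoform of COX7A2, was listed at 0.210 FPKM or less everywhere. UQCRHL, COX8C and ATP5L2 were also under that level. NDUFA4 itself was listed at 22.5, 28.9 and 33.4 FPKM against 17.4 and 30.1, with overlap (0.27, SE 0.29).

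The name rule does not reach every listed gene of the complexes. Of 19 such genes, 15 are held by an entry whose name is outside the rule. An entry with the complex V subunit ATP5MK and MIR1307 was listed at 56.5, 51.8 and 61.3 FPKM against 34.8 and 40.1 (0.58, limma adjusted p 0.0510), and one with the complex IV subunit COX6A1 and GATC at 18.1, 24.3 and 17.6 against 32.9 and 34.3 (-0.74, limma adjusted p 0.0601). Both entries separated the lines, the first with HCC827/GR above and the last with HCC827/GR below. SDHAF1, COX4I2, COX6A2 and COX7B2 were not analysed here, nor were the 13 mitochondrially encoded subunits.

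**Figure D4:**
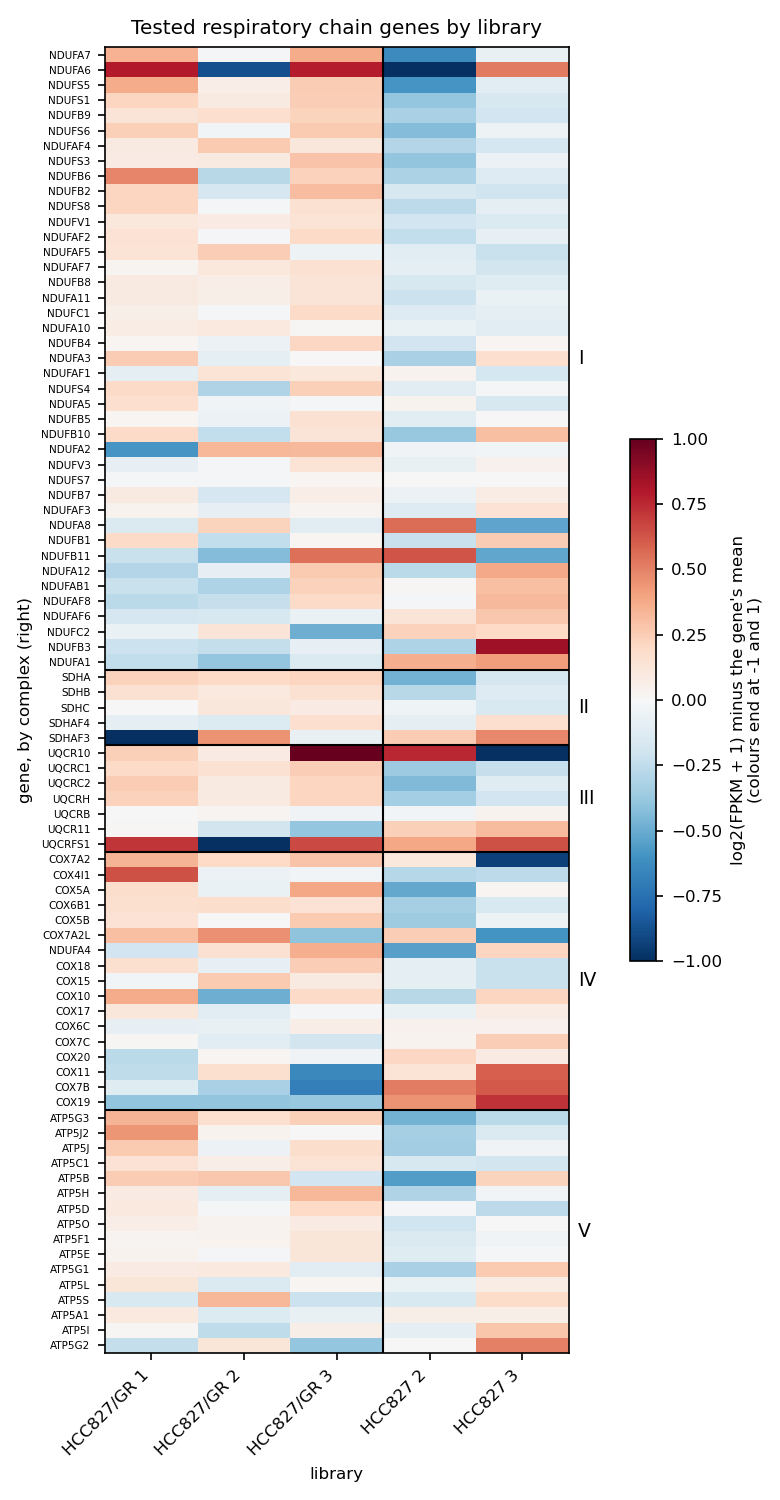
Deviation of log2(FPKM + 1) from the gene's mean over the 5 libraries (colour, red above and blue below, ending at -1 and 1) for the 86 tested genes in rows, by complex and then by fold change, with the 3 HCC827/GR libraries left of the line and the 2 HCC827 libraries right of it. HCC827 replicate 2 is bluer than HCC827 replicate 3 in 65 of 86 rows, and single dark cells mark uneven genes such as UQCR10 and UQCRFS1.

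A total of 3 genes of the set lie on chromosome X, and all had a negative fold change. NDUFA1 (chrX:119871487-119876662) and COX7B (chrX:77899438-77907373) passed the test, and NDUFB11 overlapped (-0.09). The median log2 fold change was -0.18 over 367 protein-coding entries of chromosome X, of which 20.4% were called lower, against 5.48% of protein-coding entries in all. Over the 10 tested neighbours, 5 on each side, it was -0.76 around NDUFA1 and -0.63 around COX7B. Around UQCRC1 (chr3:48599002-48610976) it was -0.25 and around ATP5G3 (chr2:175176258-175184607) 0.21. These positions are from GENCODE release 29 on GRCh38. The part of chromosome position in these results was not tested.

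Other genes of the pathway were taken from a list of 119, of which 92 had an entry and 89 were tested. Of these, 4 were higher and 2 lower at an adjusted p under 0.05, against 5.26% and 5.71% of all entries tested, and the median log2 fold change was 0.07. PPARGC1A, which encodes the coactivator PGC-1alpha, had the largest fold change, from 0.0302 and 0.0694 FPKM in HCC827 to 2.66, 5.90 and 4.70 in HCC827/GR (2.32, SE 0.29, limma adjusted p 0.0155). Of 13 tested transcription factors and coactivators, PPARGC1A alone was called higher and YY1 alone lower. YY1 was listed at 8.33, 9.64 and 8.84 FPKM in HCC827/GR and at 12.6 and 13.3 in HCC827 (-0.49, limma adjusted p 0.0461). NRF1 was listed at 3.999, 3.96 and 3.89 FPKM against 4.89 and 5.14 (-0.28, limma adjusted p 0.112), GABPA was also below without overlap (-0.18, limma adjusted p 0.345), and ESRRA, a nuclear receptor that PGC-1alpha acts through, overlapped (-0.01).

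Among the factors for transcription of the mitochondrial genome, TFAM and POLRMT went in opposite directions. TFAM, which packages and activates mitochondrial DNA, was listed at 5.17, 4.55 and 6.03 FPKM in HCC827/GR and at 8.92 and 7.67 in HCC827 (-0.58, limma adjusted p 0.0715). POLRMT, the mitochondrial RNA polymerase, was listed at 8.37, 8.29 and 9.27 FPKM against 5.48 and 6.32 (0.48, limma adjusted p 0.0566). Neither passed the test, and neither overlapped between the lines. TFB2M overlapped (0.16, limma adjusted p 0.589), and TFB1M was below without overlap (-0.23, limma adjusted p 0.279).

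Of 13 tested citric acid cycle enzymes, 2 were higher and none lower (5.26% and 5.71% of all entries), with a median log2 fold change of 0.25. IDH2, the mitochondrial NADP-dependent isocitrate dehydrogenase, was listed at 12.5, 13.3 and 11.3 FPKM in HCC827/GR and at 4.28 and 5.54 in HCC827 (1.18, SE 0.14, limma adjusted p 0.0134). DLD, a subunit shared by the 2-oxo acid dehydrogenases, was listed at 17.8, 19.6 and 18.8 FPKM against 12.8 and 13.0 (0.51, limma adjusted p 0.0336). Among 28 assembly factors outside the name rule, UQCC1 of complex III was higher at 6.60, 5.56 and 4.98 FPKM against 3.41 and 2.83 (0.70, limma adjusted p 0.0482). TMEM70, which helps to build the ATP synthase, was lower at 1.10, 1.86 and 1.19 FPKM against 5.98 and 10.3 (-1.91, SE 0.26, limma adjusted p 0.0194).

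These calls outside the set also rested on the libraries used. YY1, DLD and UQCC1 passed in none of the 5 fits that left out a library, nor did SDHAP3. PPARGC1A passed without HCC827/GR replicate 1 or 2, with a log2 fold change between 2.12 and 2.58 over the 5 fits. IDH2 passed without HCC827/GR replicate 3 or HCC827 replicate 3, between 1.02 and 1.34. TMEM70 passed without HCC827/GR replicate 2 or HCC827 replicate 2, between -2.26 and -1.56.

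Of 26 mitochondrial ribosomal protein genes none passed (5.26% higher and 5.71% lower of all entries), with a median log2 fold change of 0.07. At an unadjusted p under 0.05, limma counted 2 higher and 1 lower, against 13.4% and 13.8% of all entries. MRPL32 (0.42, limma adjusted p 0.0889) and MRPL15 (0.33, limma adjusted p 0.153) had the lowest p. Cytochrome c1 (CYC1), the complex III subunit outside the name rule, was listed at 27.0, 26.5 and 29.4 FPKM against 19.1 and 24.1 (0.35, limma adjusted p 0.179). Cytochrome c (CYCS) was listed at 30.7 FPKM in HCC827/GR replicate 3 and between 3.24 and 5.45 in the others. Of 5 tested metabolic genes that respond to hypoxia, none passed. At an unadjusted p under 0.05, 0 were higher and 1 lower, against the same 13.4% and 13.8% of all entries. LDHA, the lactate dehydrogenase A gene, was listed at 100.9, 110.2 and 103.2 FPKM against 155.2 and 127.4 (-0.42, limma adjusted p 0.110), and PDK1 was listed below as well without overlap (-0.25, limma adjusted p 0.188).

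The lines also differed in identity markers. All 7 tested epithelial and lung line markers were below without overlap (23.4% of all entries), and 6 were called lower (5.71% of all entries). Of 3 mesenchymal markers, all above without overlap, CDH2 and ZEB1 were called higher and VIM was not (1.14, limma adjusted p 0.0700). EPCAM was listed between 7.32 and 10.8 FPKM in HCC827/GR and at 86.9 and 72.6 in HCC827. Of 10 entries for leukocyte, endothelial and fibroblast markers, PECAM1 reached 4.34 FPKM in HCC827 and was listed at 0 in HCC827/GR, COL1A1 was listed between 0.391 and 0.861 FPKM, and the others at 0.278 or less. The part of these markers in the respiratory chain results was not tested. Protein-coding entries held between 67.3% and 79.3% of each library's FPKM, a share that overlapped between the lines.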

How the data were processed

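The authors sequenced total RNA, cleaned the reads with Cutadapt, aligned them by TopHat2 and Bowtie2, built transcripts in StringTie and deposited FPKM values per gene from StringTie and Ballgown. The submitters' notes name build hg18, and versions are not given in the sources used here. The paper describes a paired-end library of rRNA-depleted RNA and the labels a single-end small RNA library, which was not settled. One FPKM column that matches no sample (1 of 6) was left out. Assembled entries can join genes (13 of the 92 here), and genes were matched to GENCODE release 29 on GRCh38 by transcript identifiers, not by position.

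The comparison used limma 3.58.1 in R 4.3.3 (trend, two-sided) on log2(FPKM + 1) over the 16189 entries whose mean reached 0.5 FPKM, with Benjamini-Hochberg adjustment over all of them. The members and lists were chosen with earlier results of these data known. Named genes were those with an adjusted p under 0.05 or next to it, the 3 largest changes and the highest mean of each complex, the SDH subunits, the isoform pairs and, in each pathway subgroup, the lowest p-values. Other genes of the same roles, including NDUFS1, NDUFV1, NDUFS5, NDUFS7, NDUFB11, NDUFAF4, NDUFAF6, SDHAF4, UQCRC2, UQCRH, UQCRB, UQCR11, COX7C, COX11, ATP5A1, ATP5C1, TFAM, POLRMT, NRF1, GABPA, ESRRA and the genes in entries of another name, were named after their values were seen. The limma fit was tested on simulated data, with independent noise and planted changes larger than most of those reported here. One gene is not reported here.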

Additional observations from a re-analysis of the deposited data

How the results depend on the processing

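Results were recomputed, as far as each alternative applied to them, with 0.1 as the pseudocount, with every entry kept or only those averaging 1 FPKM or more, after median-ratio or quantile scaling, with protein-coding genes rescaled, limma without a trend, Ballgown's model, a replicate block, summed entries, the ratio of mean FPKM and each library left out. Joined entries and uneven genes were left out as alternatives chosen after seeing the data. Genes higher in HCC827/GR numbered 2 in the reported comparison, 0 without a filter, 5 with protein-coding genes rescaled (with NDUFB9, SDHA and UQCRH added), 1 without the trend, 0 under Ballgown's model and 0 to 1 with a library left out. Genes lower numbered 3, then 3 without a filter (COX6B2 in place of COX7B), 2 without the trend (COX7B lost), 0 under Ballgown's model and 0 to 2 with a library left out. Ballgown's model gave 7 higher and 4 lower at an unadjusted p under 0.05, and called 4 entries higher and 9 lower of 16189. Without a filter limma gave 17 higher and 7 lower at an unadjusted p under 0.05. With the replicate block, limma called 0 higher and 0 lower among the members and 0 of all entries, with 14 higher and 4 lower at an unadjusted p under 0.05. The block takes HCC827/GR replicate 1 out of the comparison, so its fold changes equal those without that library. The labels do not state whether the shared numbers pair the samples. Deviations of same-numbered libraries correlated at 0.033 and 0.015 over all entries. With 2 HCC827 libraries, their deviations mirror each other, so this check cannot decide on pairing. The reported comparison did not use the block. The cause of these changes was not tested.

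The median log2 fold change of complex III was 0.25 and that of complex IV 0.0355 without a filter, and that of complex II was 0.25 at a minimum mean of 1 FPKM and 0.24 with protein-coding genes rescaled. With a library left out, the median ran from 0.13 to 0.21 for complex I, 0.0283 to 0.48 for complex III, -0.0691 to 0.20 for complex IV and 0.0571 to 0.23 for complex V, and from 0.12 to 0.21 over all members. Over the genes named by rule or with an unadjusted p under 0.05, 598 recomputed values kept their direction and their side of the threshold, 89 kept the direction but were no longer past the threshold, and 5 newly passed it. Reversed without HCC827 replicate 2 were ATP5B (-0.12), ATP5G1 (-0.24), NDUFA4 (-0.11), NDUFA6 (-0.28) and NDUFA8 (0.52). NDUFA8 also reversed under Ballgown's model (0.0727) and without HCC827/GR replicate 1 (0.0459, the same estimate as with the replicate block) or 3 (0.024). Ballgown's model reversed NDUFA4 (-0.0126) and CYCS (-0.10), leaving out HCC827 replicate 3 reversed UQCR10 (-0.18), and leaving out HCC827/GR replicate 2 reversed UQCRFS1 (0.18). Over all fits that leave out a library, the log2 fold change ran from -0.12 to 0.67 for ATP5B, -0.24 to 0.35 for ATP5G1, -0.11 to 0.65 for NDUFA4, -0.28 to 1.45 for NDUFA6, -0.56 to 0.52 for NDUFA8, -0.18 to 3.03 for UQCR10 and -1.38 to 0.18 for UQCRFS1. With 3 and 2 libraries, an exact permutation test could not go below 0.1. The depth of the libraries is unknown, so the counting error of low genes could not be given.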
